A study of Mus musculus with 6 samples.

Results

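The 10 genes described here encode 2 receptors of tumour necrosis factor (TNF), Tnfrsf1a and Tnfrsf1b, and the proteins that carry or restrain their signal, Tradd, Ripk1, Traf1, Traf2, Traf3, Traf5, Traf6 and Tnfaip3. Peaks of 5-hydroxymethylcytosine (5hmC) that overlapped the RefSeq span of these genes, or the 5 kb on either side of it, were collected from 4 libraries. Overlapping peaks were merged into regions. This gave 33 regions out of 174070 in the genome, at 10 of 21887 protein-coding genes. All 10 genes had at least 1 region, and 16878 of the 21887 protein-coding genes had a peak in the interval drawn the same way. The regions were chosen by the peak calls themselves, whatever the genotype, so that a peak was present in at least 1 library at each of them is no finding.

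The base 5hmC arises when TET enzymes oxidise 5-methylcytosine, and it was mapped by immunoprecipitation of sonicated DNA with an antibody to 5hmC and sequencing. All cells were C57BL/6 mouse bone marrow cells enriched for Kit, transduced with a retrovirus carrying AML1-ETO (a leukaemia fusion protein) and GFP, and kept in stem cell factor, interleukin 3 and interleukin 6. All carried Tet2fl/fl and CreER, a Cre recombinase that 4-hydroxytamoxifen (4-OHT) switches on. The flox group (Tet2fl/fl, 2 libraries) was given ethanol, and the KO group (Tet2-/-, 2 libraries) was given 200 nM 4-OHT, each for 2 passages (4 days). Sorted GFP+, CD11b-, Gr1-, CD16/32+ cells at passage 5 were profiled. The promoter driving CreER, the age of the mice and whether replicates were separate cultures are not given in the labels, so the spread between the 4 libraries may be technical. Only KO cultures met the drug, so the drug, active Cre and loss of Tet2 cannot be told apart.

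Each library's peak list held 116539 to 122101 peaks covering 110.3 to 113.3 Mb. The read depth of the libraries was unknown. Of the surface proteins used in the sort, Fcgr2b (CD32) had 1425 and 1613 bp under peaks in flox against 1343 and 767 bp in KO, and Ly6g (Gr1), absent from the sorted cells' surface, 2490 and 3751 bp in flox against 2132 and 2057 bp in KO. Fcgr3 (CD16) had 1700 and 1729 bp under peaks in flox and 1080 and 2224 bp in KO, and Itgam (CD11b), also sorted against, had 5673 and 5938 bp in flox against 6763 and 8553 bp in KO. Of 10 genes that mark immature myeloid cells all had calls, Elane, Prtn3 and Ctsg in KO replicate 1 alone, and 6 of the 7 tested had less called length in KO (median log2 difference -0.39). Of 4 genes of the lineages sorted against, 1 of 3 tested (Ly6g) was lower. Ly6c2 had 1404 and 883 bp in flox against 1867 and 1877 bp in KO. Among 14 markers of other cell types 13 had calls and 2 of 8 tested were lower. Cpa3, among the higher, had scaled means of 424 bp in flox and 1284 bp in KO, and passed the filter through KO. Having calls was the usual state, with 16878 of all 21887 protein-coding genes. Of the 14162 genes tested 7730 had less called length in KO. The part of these markers in the results was not tested. A 5hmC peak marks DNA and does not measure RNA or protein, so these values do not check the sort.

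TNF is an inflammatory cytokine that acts on blood stem and progenitor cells and on the myeloid cells they form. Its receptor Tnfrsf1a binds the death domain adaptor Tradd, which recruits the kinase Ripk1 and the ubiquitin ligase Traf2. From there the signal passes to NF-kB transcription factors or, when that branch is blocked, to caspases. Tnfrsf1b binds Traf2 directly, Traf3 holds back the alternative NF-kB pathway, Traf6 serves Toll-like and interleukin 1 receptors, and Tnfaip3 (A20) edits ubiquitin chains and shuts the response down. In blood cells 5hmC is found mostly in gene bodies and at enhancers.

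The promoter of Tnfrsf1a lay under a 5hmC peak in all 4 libraries, and none of the other promoter windows examined lay under a peak in any library. RefSeq windows (GRCm38.p6, from 250 bases before to 50 after a transcription start) were found for 9 of the 10 genes, 11 windows in all, and none for Tradd. Of all 21263 such windows of protein-coding genes, 5.28% lay under a peak in all 4 libraries and 86.0% in none. The bases upstream of the start are shown for the 2 receptors, the one under peaks and the other not. Both are 5′ to 3′ on the strand of the gene (Tnfrsf1a, plus strand, chr6:125349473-125349722; Tnfrsf1b, minus strand, chr4:145246871-145247120), with capitals marking each CG, the dinucleotide in which 5-methylcytosine and 5hmC mostly occur.
Tnfrsf1a: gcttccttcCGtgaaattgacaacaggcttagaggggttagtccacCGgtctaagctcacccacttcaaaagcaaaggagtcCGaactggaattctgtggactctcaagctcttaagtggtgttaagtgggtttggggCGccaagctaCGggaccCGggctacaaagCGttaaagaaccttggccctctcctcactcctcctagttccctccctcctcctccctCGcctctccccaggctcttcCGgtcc
Tnfrsf1b: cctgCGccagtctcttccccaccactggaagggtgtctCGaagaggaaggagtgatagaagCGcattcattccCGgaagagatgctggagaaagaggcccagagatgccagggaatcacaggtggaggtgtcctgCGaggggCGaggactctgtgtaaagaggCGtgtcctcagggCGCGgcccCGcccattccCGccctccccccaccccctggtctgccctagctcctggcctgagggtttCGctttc

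These stretches hold 9 CG in Tnfrsf1a and 12 in Tnfrsf1b, at a G and C content of 55.6% and 62.8%. Over the full windows, Tnfrsf1a had 11 CG and the other 10 windows had 4 (Traf1) to 59 (Traf3), so windows without a peak lay on both sides of it. Windows of all genes with 5 to 14 CG lay under a peak in all 4 libraries in 6.22% of cases and those with 15 or more in 6.18%. The letters TGTGGT, a form of the motif bound by AML1, were searched on both strands and stood once each in the windows of Traf1, Traf5 and Traf6 and in 15% of all windows. A match or its absence describes these letters only.

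**Figure D1:**
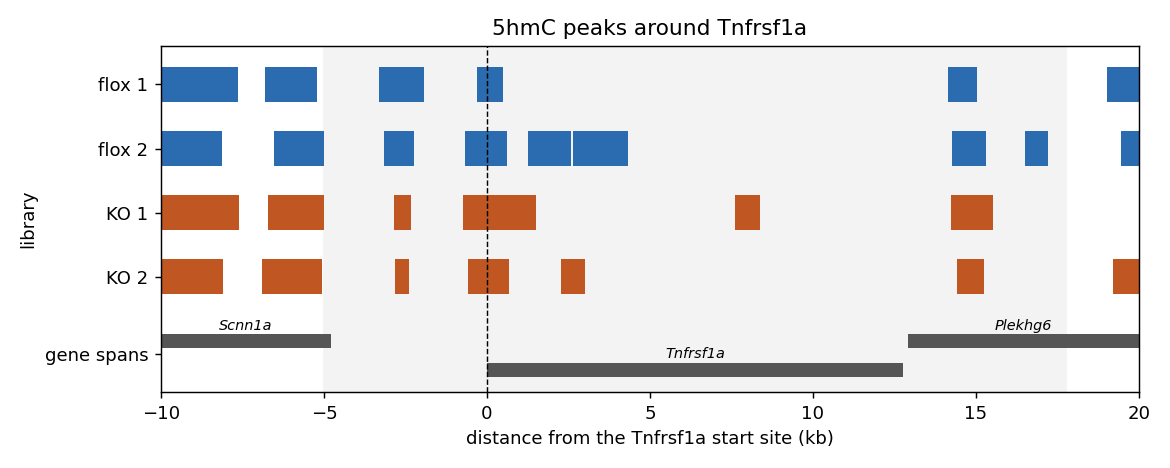
Peaks in each library (bars; blue, flox; orange, KO) by distance in kb from the Tnfrsf1a start site (dashed line), with the spans of protein-coding genes in grey and the gene span plus 5 kb shaded. A peak crosses the start site in all 4 libraries, while the calls from about 1 to 5 kb inside the gene differ between libraries of the same genotype.

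Tnfrsf1a (chromosome 6, 125349723 to 125362483) carried the most called 5hmC for its size of the 10 genes, part of it in neighbouring genes. Called length, the number of bases under peaks in the gene span plus 5 kb, was 3085 and 7011 bp in flox replicates 1 and 2, and 4833 and 3284 bp in KO replicates 1 and 2. The highest value was flox replicate 2 and the lowest flox replicate 1, so the groups overlapped. The means were 5048 ± 2776 bp in flox and 4059 ± 1095 bp in KO (SD, n = 2 each), a smaller difference than the spread. The region over the start site (125348995 to 125354061) was called for 820 and 4332 bp in flox against 2247 and 2002 bp in KO. The peak that crosses the start stood at percentiles 91.0 and 63.2 of its own library's scores in flox and 84.1 and 79.4 in KO. These scores are the peak caller's, as deposited by the authors.

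About 2 kb upstream of this start lay a region (125346411 to 125347792) at which KO peaks were narrower and ranked higher than flox peaks. It was called for 1382 and 896 bp in flox against 526 and 439 bp in KO. The peaks' percentiles were 45.7 and 37.4 in flox and 84.8 and 87.1 in KO. When weaker peaks (a score under 100) were dropped, it was called in the 2 KO libraries alone. When a library had to cover 50% of the region to count, it was called in the 2 flox libraries alone. The direction thus turned with the rule used. This region was chosen for mention with its values in view. A further region, 125342816 to 125344740 in the sodium channel gene Scnn1a, reached 18 bp into the 5 kb, the least of the 33. In Plekhg6, the neighbour on the other side, 125363870 to 125365232 was called for 883 and 1060 bp in flox against 1274 and 843 bp in KO. Also in Plekhg6, 125366233 to 125366937 was called for 705 bp in flox replicate 2 alone. Both regions in Plekhg6 count in the called length of Tnfrsf1a. The nearest region left out lay 130 bp beyond the 5 kb at Traf6 (chromosome 2, 101672777 to 101673289) and was called for 513 bp in KO replicate 1 alone.

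Tnfrsf1b (chromosome 4, 145212368 to 145246870), the second receptor, had 1076 and 2174 bp called in flox and 700 and 1383 bp in KO. KO replicate 1 was lowest and flox replicate 2 highest, with overlap between the groups. Of its 3 regions, 1 inside the gene (145233981 to 145235353), 11517 bp from the start site, was called in all 4 libraries, and the others in 1 library each.

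Tradd was the gene of the set whose called 5hmC differed most between genotypes, with peaks in both flox libraries and none in either KO library. Its called length was 3047 bp in flox replicate 1, 2403 bp in flox replicate 2 and 0 bp in both KO replicates. The groups did not overlap. Of all protein-coding genes, 265 (1.21%) had called length in both flox libraries and 0 bp in both KO libraries. Since Tradd was at 0 in KO no fold is given, and on the log2(bp + 500) scale the difference was -2.68 (SE 0.39), a value that depends on the 500 bp added. Tradd reached the mean of 500 bp needed for the test through its flox libraries alone, so nothing is read from its unadjusted p, and it did not pass over all genes (limma adjusted p = 0.773).

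The peaks of Tradd (chromosome 8, 105258575 to 105264594) fell into 4 regions, of which 2 were flox-only, meaning that both flox libraries and no KO library had a peak there. The first (105261119 to 105262327) lay inside Tradd and was called for 810 and 1209 bp. The second (105266561 to 105267601), for 1041 and 648 bp, lay inside the neighbouring gene Fbxl8, which encodes an F-box protein, and falls within the 5 kb beside Tradd. The other 2 were called in 1 library each, at 105262539 to 105263084 inside Tradd (546 bp, flox replicate 2) and at 105254192 to 105255387 in the glycosyltransferase gene B3gnt9 (1196 bp, flox replicate 1). In their own lists the flox-only calls stood at percentiles 26.5 and 56.0 for the region inside Tradd and 75.4 and 56.0 for the one in Fbxl8. The KO peak nearest to the region in Fbxl8 lay 3570 bp away in KO replicate 2 and 12964 bp away in KO replicate 1.

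When each list was limited to its 50000 top peaks by score, neither flox-only region was left and Tradd held 1041 bp in flox replicate 1 alone, too little to be tested. Over the gene span alone the log2 difference was -1.78. Genes that share these peaks gave related values and are no independent support. Fbxl8 had 3137 and 3472 bp in flox against 0 and 832 bp in KO, and the heat shock factor gene Hsf4 had 2605 and 2600 bp against 281 and 1135 bp.

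**Figure D2:**
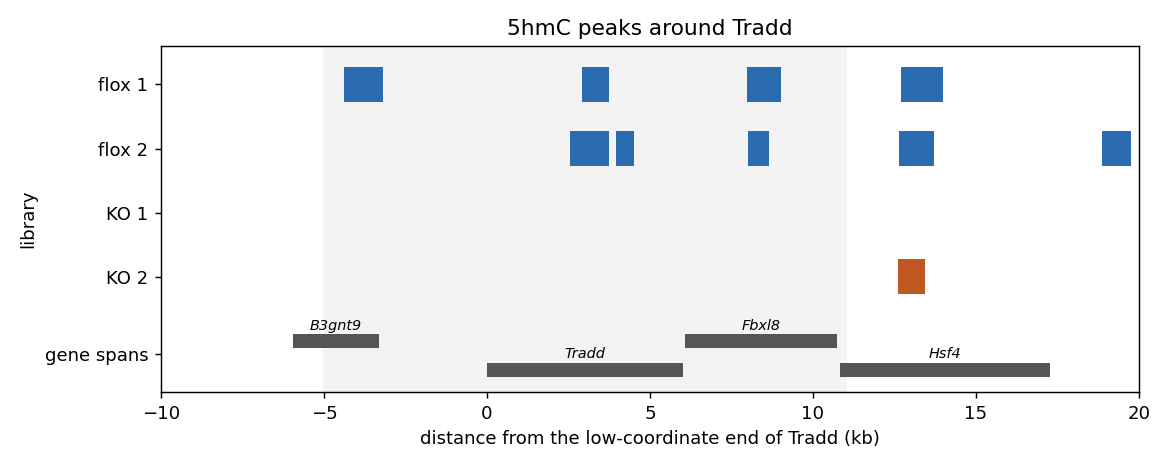
Peaks in each library (bars; blue, flox; orange, KO) by distance in kb from the low-coordinate end of Tradd, with gene spans in grey and the span of Tradd plus 5 kb shaded. Inside the shaded interval there are 3 peaks in each flox library and none in the KO libraries.

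Ripk1 and Tnfaip3 held little called 5hmC. At Ripk1 (chromosome 13, 34002225 to 34035170), the kinase next to Tradd, called length was 1271 and 0 bp in flox against 1375 and 0 bp in KO. Replicate 1 of each genotype had calls and replicate 2 of each had none. One of its regions (33998130 to 33999400) lay in the neighbouring serpin gene Serpinb6a, and the other (34015342 to 34016198), inside Ripk1, was called in KO replicate 1 alone. Tnfaip3 (chromosome 10, 19000910 to 19015410) had a single region of 694 bp outside the gene (19016128 to 19016821), called in flox replicate 1 alone at percentile 1.9 of its scores, and 0 bp in the other libraries.

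Traf1 (chromosome 2, 34941750 to 34961812), which binds Traf2 and is itself induced by NF-kB, had 5013 and 4504 bp called in flox and 4836 and 2861 bp in KO. KO replicate 2 was the lowest, and KO replicate 1 lay between the flox libraries. Its 2 regions called in all 4 libraries flank the 3′ end of the gene. The one inside (34942114 to 34944692) was called for 2402 and 2421 bp in flox against 2271 and 1325 bp in KO, and held the highest scored peak at the 10 genes (502.02 in flox replicate 2). The one beyond the 3′ end (34939246 to 34941459) was called for 1709 and 2083 bp in flox against 2007 and 1536 bp in KO.

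Traf2 (chromosome 2, 25517982 to 25546940), the ligase that joins both receptors to NF-kB, had 1048 and 0 bp called in flox and 0 and 619 bp in KO. Its 2 regions were called in 1 library each, with no base in common. Traf3 (chromosome 12, 111166321 to 111267155) had the most regions, 7, and 5432 and 3222 bp in flox against 3031 and 5000 bp in KO. Flox replicate 1 and KO replicate 2 were high and the other libraries low.

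The single KO-only region at the 10 genes lay inside Traf3 (111193214 to 111194165), called for 798 and 876 bp in the KO libraries at percentiles 29.5 and 2.9 of their scores. With weaker peaks dropped (a score under 100, or the 50000 top peaks by score) this region was no longer KO-only, and the single KO-only region was at Tnfrsf1a. A flox replicate 1 peak lay 1554 bp away, in a region (111190487 to 111191660) also called in KO replicate 2, and 4207 bp away on the other side a region (111198372 to 111199755) was called in all 4 libraries. Another (111269474 to 111271078), beyond the 3′ end of Traf3 and next to Amn, a gene of vitamin B12 uptake, was the steadiest of the set. It was called for 1428 and 1422 bp in flox against 1362 and 1323 bp in KO, at percentiles 94.0 and 97.6 in flox and 97.5 and 97.4 in KO.

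Traf5 (chromosome 1, 191997203 to 192092599), a close relative of Traf2, had 2106 and 2256 bp called in flox and 3394 and 2210 bp in KO. KO replicate 1 was the highest and the other libraries were close together. Inside the gene, 192060759 to 192062341 was called for 1100 and 1133 bp in flox against 1246 and 1285 bp in KO. Near the 3′ end, 191998451 to 191999946 was called for 1006 and 1123 bp in flox against 1352 and 925 bp in KO. The hairpin of the microRNA gene Mir3473c (191998554 to 191998634) lies within this region and was reached by the peak of KO replicate 1 only. Traf6 (chromosome 2, 101678420 to 101701668) had 1431 and 899 bp in flox against 900 and 1418 bp in KO, the same range in both groups, from 2 regions each called in 3 libraries.

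**Figure D3:**
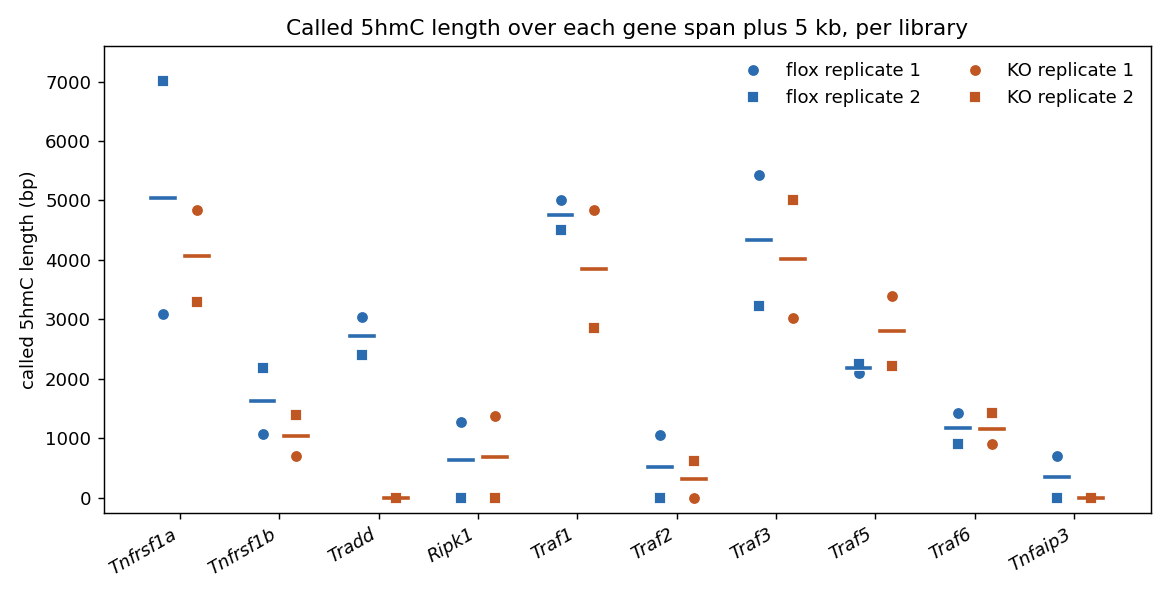
Called 5hmC length (bp) over each gene span plus 5 kb, with 1 point per library (circle, replicate 1; square, replicate 2; blue, flox; orange, KO) and a line at the mean of each group. At Tradd both KO points stand at 0 and the flox points at 2403 and 3047 bp, while at the other genes the KO and flox points overlap or share a 0.

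Across the 33 regions, 11 (33.3%) were called in all 4 libraries, against 40.5% of the 81689 regions at all protein-coding genes taken the same way and 39.5% of all 174070 regions. In 1 library alone 13 (39.4%) were called, against 27.2% and 27.3%. The 2 flox-only regions made up 6.06% (3.21% at all genes and 2.96% of all regions) and the 1 KO-only region 3.03% (2.74% and 3.0%). With so few regions these shares are a description. The regions called in all 4 libraries stood at Tnfrsf1a (4), Traf1, Traf3 and Traf5 (2 each) and Tnfrsf1b (1), and none at Tradd, Ripk1, Traf2, Traf6 or Tnfaip3. Those at Tnfrsf1a include a region in Scnn1a and another in Plekhg6. Of the 33, 19 overlapped a gene of the set, 6 lay in a neighbouring gene and 8 between genes. Exons and introns were not analysed here.

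Peaks in regions called in all 4 libraries had a median percentile of 75.2 in their own lists (50 peaks), and those in regions called in 1 library 18.5 (13 peaks). Over all 83 peaks the median length was 1006 bp, from 439 to 2421 bp. Flox replicate 1 called 23 of the regions and each of the other libraries 18. Any pair of libraries shared 44.0% to 57.7% of the regions that either of them called, with 51.9% for the flox pair and 56.5% for the KO pair. Over all 174070 regions the pairs shared 59.6% to 61.1%, with 60.1% for the flox pair and 61.1% for the KO pair.

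**Figure D4:**
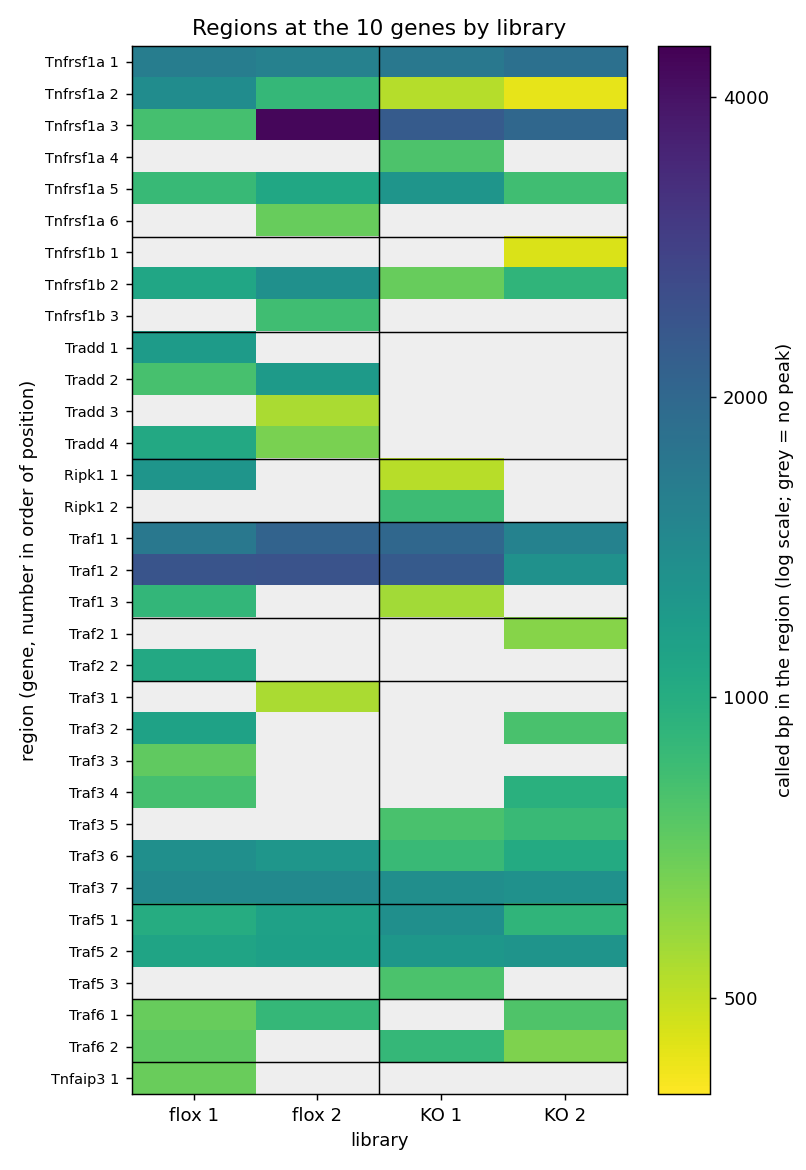
Called bp (colour, log scale; grey where no peak was called) of the 33 regions (rows, numbered by position within each gene) in the 4 libraries (columns). The Tradd rows are grey in both KO columns, and 11 rows are coloured in all 4.

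Called length per unit of sequence spread widely over the set. It was 201 bp per kb of span plus 5 kb at Tnfrsf1a and 143 at Traf1, higher than at 97.8% and 93.6% of protein-coding genes, and 84.5 at Tradd (81.1%). Traf3, Traf6, Tnfrsf1b and Traf5 stood between 23.7 and 37.5 bp per kb, near the middle of all genes, and Ripk1 (15.3), Traf2 (10.6) and Tnfaip3 (6.95) were lowest. These are means of the 4 libraries scaled to the same total, and they include peaks in other genes within the 5 kb. Neighbours in this order were not tested against each other.

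In the fit over all genes, no gene of the set passed a limma adjusted p of 0.05 between KO and flox, as no gene in the genome did (0 of 14162, 0.0%; 869 at an unadjusted p under 0.05). Of the 10 genes, 8 had a mean of at least 500 bp and were tested, while Traf2 and Tnfaip3 did not reach it. Of all genes, 4.3% had less in KO and 1.84% more at an unadjusted p under 0.05, and of the 8 Tradd alone did, which its passage on the flox libraries leaves as a description. Tradd was also the 1 gene with both KO libraries below both flox libraries, against 20.7% of all genes tested, and none had both above (14.6%). The other log2 differences ran from -0.44 (Tnfrsf1b, SE 0.41) to 0.29 (Traf5, SE 0.27), with limma adjusted p from 0.882 to 0.998. The standard error was 1.02 at Ripk1, where replicates differed most, and 0.27 to 0.41 at the others.

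The rest of the pathway was described from 5 further gene lists, and no gene of them passed the test over all genes. Among IKK and NF-kB genes, which carry the signal from the receptor complex into the nucleus, 13 of 15 tested genes were lower in KO and 2 higher, with a median log2 difference of -0.31. Over all 14162 genes 7730 had less and 6432 more, with a median of -0.04. Without flox replicate 1 the count was 10 of 15, the median was -0.17 without KO replicate 2, and when peaks scored under 100 were dropped the count was 5 of 9 and the median -0.07. Of the 67 regions of the list 5 were flox-only (at Map3k7, Nfkb1, Nfkbib, Nfkbie and Bcl3) and none KO-only, where 3.21% and 2.74% of the regions at all protein-coding genes were. These shares are the background for the region counts of the other lists too.

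Nfkbie, an inhibitor of NF-kB (chromosome 17, flox-only region 45559320 to 45560101), had 782 and 1510 bp in flox and 0 bp in both KO libraries. It reached the mean of 500 bp through its flox libraries alone, so its place among the genes counted as lower was fixed by the filter. Map3k7 (TAK1, the kinase upstream of IKK) had 989 and 910 bp in flox and 0 bp in both KO libraries and was too low to be tested. Nfkb1, the gene of the p50 subunit, had 9105 and 10007 bp in flox against 8344 and 8051 bp in KO (limma adjusted p = 0.867, with a log2 difference of -0.19 and an SE of 0.14). Bcl3, a nuclear partner of NF-kB, had 3984 and 4219 bp in flox against 5126 and 4132 bp in KO. KO replicate 1 was the highest, and KO replicate 2 lay between the flox libraries. The log2 difference was 0.16 (SE 0.20, limma adjusted p = 0.913).

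Of the TNF family ligands, 6 of 16 tested genes were lower in KO and 10 higher (median 0.04), with 3 flox-only regions and 1 KO-only among 53. Without flox replicate 1, without KO replicate 1 or by number of peaks the count became 9 lower and 7 higher. Tnfsf13b (BAFF, a survival factor of B cells, chromosome 8) had 2210 and 2199 bp in flox against 797 and 891 bp in KO (limma adjusted p = 0.773, with a log2 difference of -0.9996 and an SE of 0.27), with a flox-only region inside the gene (10019943 to 10021166). The other flox-only regions stood at Tnfsf4 (OX40 ligand) and Eda (ectodysplasin). The KO-only region, 35202081 to 35203206 on chromosome 17, lay mostly between Tnf (which ends at 35202007) and Lta (which starts at 35203165). This region overlapped only the edge of Lta, and it counts for both genes, which are neighbours. It was called for 1126 and 881 bp in KO. Tnf had 1069 and 3975 bp in flox against 4731 and 2080 bp in KO, with overlap between the groups.

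Among the other TNF family receptors, 9 of 21 tested genes had less in KO and 12 more (median 0.12), with 2 flox-only and 4 KO-only regions among 82. This order depended on the peaks used, with 13 of 17 genes lower when peaks scored under 100 were dropped and 5 of 21 without flox replicate 1. Fas, the death receptor (chromosome 19), had 3558 and 3644 bp in flox against 5368 and 5043 bp in KO (limma adjusted p = 0.797, with a log2 difference of 0.49 and an SE of 0.18), with a KO-only region at 34310283 to 34310886. Ltbr, the lymphotoxin beta receptor, had 1197 and 430 bp in flox against 1413 and 1930 bp in KO, and also held a KO-only region. The others lay at Edar and Tnfrsf17 (KO-only) and at Ngfr and Tnfrsf8 (flox-only). Tnfrsf12a, the receptor of TWEAK, had 1043 and 3104 bp in flox and 0 bp in both KO libraries, with no flox-only region, and was chosen after its values were seen. Its mean reached 500 bp through the flox libraries alone, so its place among the receptors counted as lower was fixed by the filter. Tnfrsf14, also counted as lower, had scaled means of 662 bp in flox and 472 bp in KO. With KO under 500 bp, the filter fixed this order of means too.

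Other adaptors, ubiquitin ligases and brakes had 12 of 19 tested genes lower and 7 higher (median -0.08). Their 71 regions held flox-only ones at Otulin and Rbck1, genes of linear ubiquitin chains, and a KO-only one at Otud7b, a deubiquitinase gene. Without KO replicate 2 the count was 9 lower and 10 higher. Traf7, among the 12, had scaled means of 856 bp in flox and 382 bp in KO, an order fixed by the filter. Tnip1, which binds Tnfaip3, had 4669 and 3433 bp in flox against 2145 and 2678 bp in KO (limma adjusted p = 0.802, with a log2 difference of -0.62 and an SE of 0.24), and was chosen after its values were seen. In the cell death branch 4 of 9 were lower and 5 higher (median 0.05), but 5 and 4 when flox replicate 1 was left out, and 2 and 7 when replicate 2 of either genotype was. With peaks scored under 100 dropped the count was 3 lower and 2 higher, and over the span plus 10 kb 6 and 4. Bid, among the 4 lower, had scaled means of 911 bp in flox and 460 bp in KO, an order fixed by the filter. Of the 57 regions of the branch 4 were flox-only and none KO-only. Of the 4, 3 were among the 28 regions of Map3k5, a long stress kinase gene with 17218 and 22057 bp in flox against 15740 and 15725 bp in KO, and 1 near the caspase gene Casp8.

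JAK and STAT genes, the other signalling family set beside these, had 8 of 11 lower and 3 higher (median -0.15), with 4 flox-only regions (2 at Jak1, 1 each at Jak2 and Stat5b) and no KO-only region among 54. The direction turned with the 50000 top peaks by score, at 3 lower and 5 higher (median 0.17), and was 6 lower and 5 higher (median -0.02) over the gene span alone. The median was -0.32 without flox replicate 1 and -0.34 without KO replicate 1. Jak2, among the 8, had scaled means of 1733 bp in flox and 287 bp in KO. It reached the mean of 500 bp through flox, so the filter fixed this order of its means. At the 10 TNF genes 5 of the 8 tested were lower and 3 higher (median -0.14), with Tradd among the 5 through its flox libraries alone. The lists were not tested against each other or against all genes.

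**Figure D5:**
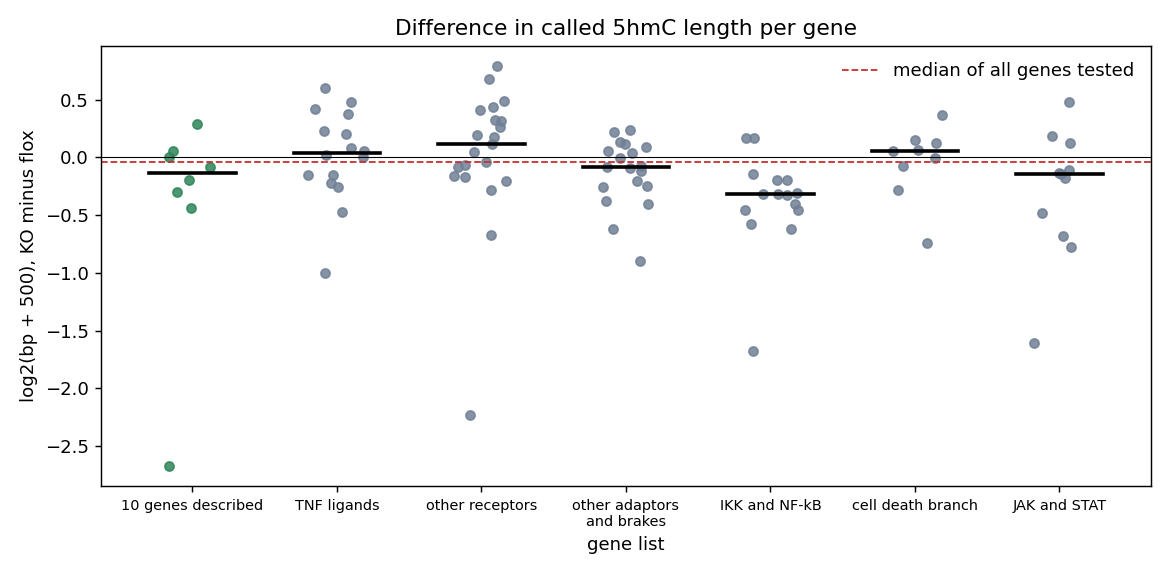
Difference in called 5hmC length per gene, KO minus flox, on the log2(bp + 500) scale (points, genes tested; black line, median of the list; dashed line, median of all genes tested) for the set described and 6 further lists. Tradd is the lowest point of the set at -2.68, and the IKK and NF-kB list has the lowest median at -0.31.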

How the data were processed

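Peak lists of 4 libraries were used, and the IgG control and input were not used here. CASAVA 1.8, Bowtie, MACS 1.4 and the build GRCm38 (mm10) stand in the submitters' processing notes, without settings or the control used for calling. Each deposited list gives positions, a score and a p-value per peak, and the score is minus 10 times that p-value's log10 (at least 50). Depth was unknown, and more depth can add weak peaks.

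Called length per gene (RefSeq span plus 5 kb at both ends) was scaled to the same total per library and moved to log2(bp + 500). The 14162 genes whose mean reached 500 bp were fitted in limma 3.58.1 under R 4.3.3, with trend and robust set (tested on simulated data), and p-values were Benjamini-Hochberg adjusted over all of them. The added 500 bp shrinks the difference of genes with short calls. Lengths per library in the text are unscaled. Peaks overlapping by 1 bp or more were merged. Coordinates are GRCm38, counted from 1, and promoter and microRNA entries are RefSeq's (GRCm38.p6).

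The genes and lists were chosen with earlier results of these data known. Named in the further lists were genes with a flox-only or KO-only region, those whose order the filter fixed, and those marked in the text as chosen with their values in view. Genes with the smallest p in a list were not all named. Gene lists: TNF ligands, other receptors, other adaptors and brakes, IKK and NF-kB, cell death, JAK and STAT, and 3 of cell markers. Alternatives were other pseudocounts, filters, scaling, intervals, score limits, merging rules, peak counts, leaving out each library, and a replicate block. Python 3.11.15, pandas 2.3.3, numpy 2.4.6 and matplotlib 3.10.9 were used.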

Additional observations from a re-analysis of the deposited data

How the results depend on the processing

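No gene passed the limma threshold in any of the 15 alternatives (0 genes in each, each library left out included; smallest adjusted p 0.323 to 0.876; 602 to 1237 genes at an unadjusted p under 0.05). Deviations of same-numbered libraries from their group means were hardly correlated across genes (r = 0.0065). This value cannot tell whether the replicates were paired cultures. The replicate block left 0 genes past the threshold and Tradd at -2.68 (limma adjusted p = 0.797). Tradd was lower in KO in all 14 alternatives that could test it (-4.80 to -1.78). With all 4 libraries its limma adjusted p ran from 0.323 to 0.863. Since both KO libraries held 0 bp, its sign could have turned only over the span plus 10 kb (-2.42). In the other alternatives the direction was fixed in advance and is no support. With the 50000 highest scored peaks Tradd was too low to be tested. Flox-only regions at the 10 genes numbered 1 with a score of at least 100 (the region in Fbxl8) and 0 with the 50000 highest scored peaks. They numbered 1 over the gene span alone, and 3 with 50% of the region covered, where 1 at Tnfrsf1a joined. With a library left out they numbered 2 to 6 (6 without either flox replicate). KO-only regions numbered 1 to 4 with a library left out (4 without KO replicate 2, 3 without KO replicate 1, 2 without flox replicate 1), which follows from asking for 1 library in place of 2 in the reduced genotype. Signs turned with a score of at least 100 at Traf3 (0.46), Traf6 (-0.38), Tnfrsf1a (0.40) and Tnfrsf1b (0.28), and with the 50000 highest scored peaks at Traf3 (0.49), Traf5 (-0.28), Tnfrsf1a (0.43) and Tnfrsf1b (0.29). Over the gene span alone they turned at Traf3 (0.11) and Tnfrsf1a (0.19), by number of peaks at Traf1 (0.20) and Traf6 (-0.0073), and without scaling at Traf6 (-0.0044). With a library left out the values ran from -0.64 to 0.041 at Traf1, -0.40 to 0.24 at Traf3, -0.22 to 0.23 at Traf6, -0.75 to 0.35 at Tnfrsf1a and -0.90 to 1.01 at Ripk1. The cause of these turns was not tested.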
